A study of Mus musculus with 71 samples.

Results

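Undisturbed brains of the inbred mouse strains DBA/2J and C57BL/6J were compared on 24 arrays, 12 of DBA/2J and 12 of C57BL/6J, out of the 71 arrays of the series, each array of the pair of strains labelled as a home-cage control being taken. Each strain had 3 arrays at each of 4 times of sacrifice, ZT0, ZT6, ZT12 and ZT18, where ZT counts hours from light onset. All mice were males of 12 to 13 weeks, and each array held whole-brain RNA pooled from 3 mice of a group of 9. The series also holds AKR/J mice, and mice of all 3 strains kept awake for 6 h before sacrifice; DBA/2J and C57BL/6J sleep-deprived arrays, 24 of them, served here to see whether a strain difference recurred in other pools of mice.

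DBA/2J and C57BL/6J are parents of the BXD recombinant inbred lines, a reference panel for mapping traits to genes, and they differ in sleep, alcohol intake, seizure and coat colour traits. A strain difference in a transcript can follow from a sequence variant in or near its own gene, from gene copy number, or from a regulator elsewhere in the genome. The arrays carry probe sets, groups of short designed sequences that sample a stretch of a transcript, and several probe sets of a gene can sample different stretches. Bases that differ between the strains under a probe can also change its signal; probe sequences and strain genomes were not used here, so their part in any difference below was not tested.

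Expression was read as log2 signal per probe set, on which a difference of 1 is a doubling. No detection calls were used, so a fold against a strain whose signal lies below the array medians is a ratio of signals and may understate the ratio of transcripts. A probe set was called when its strain difference, fitted by limma with time of sacrifice as a block, had a Benjamini-Hochberg adjusted p under 0.05 over all 45037 probe sets. Genes with 2 or more probe sets were sorted by their calls. In agreeing genes at least 2 probe sets were called, all calls had 1 direction, and the second largest difference was at least 0.5 of the largest. In unequal genes the second largest was smaller than that. In opposite genes calls went both ways, and in single genes 1 probe set was called and the others were not. Agreement was asked of the called probe sets, so an agreeing gene can also hold uncalled ones.

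The strain was the main axis of variation, and the first principal component, with 50.7% of the variance, placed all 12 DBA/2J arrays on one side and all 12 C57BL/6J arrays on the other. Array medians lay between 5.66 and 5.71, and any pair of control arrays correlated at 0.986 or more. One array stood apart: C57BL/6J ZT0 replicate 3 had a mean poly-A spike-in signal of 5.28, against 5.72 or more in arrays not counted as low. It gave the lowest C57BL/6J value for 67 and the highest for 43 of the 329 probe sets of named genes. Without it 10156 probe sets were called, and the difference of Cap1 1417461_at was 3.89, of Gprc5b 1451411_at 2.16 and of Kcnj9 1426115_a_at 1.06. The labelled tissue was checked on 10 neuronal markers, whose median level was 11.8, with 1 called higher in DBA/2J and 0 lower. The pituitary markers gave 0 calls among 6 genes but varied between arrays, with a summed level from 9.44 to 14.1 in DBA/2J arrays and from 10.2 to 13.9 in C57BL/6J arrays.

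DBA/2J and C57BL/6J brains differed in 9958 of 45037 probe sets (22.1%), with 5829 higher in DBA/2J (12.9%) and 4129 lower (9.17%). Most differences were small. The median size of a called difference was 0.21 log2, and 61.9% of calls were below 0.25. Direction turned with size: 34.9% of calls below 0.25 were lower in DBA/2J, against 47.8% of those between 0.25 and 0.5, 56.6% between 0.5 and 1, 63.0% between 1 and 2 and 69.9% of the 136 calls of 2 or more. Of all probe sets, 171 were called higher by at least 1 log2 (0.38%) and 316 lower by as much (0.702%). The ranges of the 12 and the 12 arrays did not overlap in 2060 probe sets (4.57%). The share of calls lower in DBA/2J moved with the scaling, at 41.5% as deposited and 47.3% with each array centred on its median.

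Among 9010 genes with 2 or more probe sets, 1014 were agreeing (11.3%), 267 unequal (2.96%), 418 opposite (4.64%) and 2178 single (24.2%), and 5133 had no call (57%). All probe sets were called in 1 direction, the smallest at least 0.5 of the largest, in 451 genes, 285 higher and 166 lower in DBA/2J. Of 9183 genes with a lone probe set, 1708 were called (18.6%). The classes differed in the direction of their large differences. Where the largest difference of a gene reached 1 log2, 25 agreeing genes were higher in DBA/2J and 20 lower (44.4% lower), whereas 12 single genes were higher and 38 lower (76% lower). Opposite genes had their largest difference upward in 19 and downward in 52, unequal genes in 19 and 38, and genes with a lone probe set in 19 and 27. These shares were not tested against each other, because the classes were made from the same calls.

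**Figure D1:**
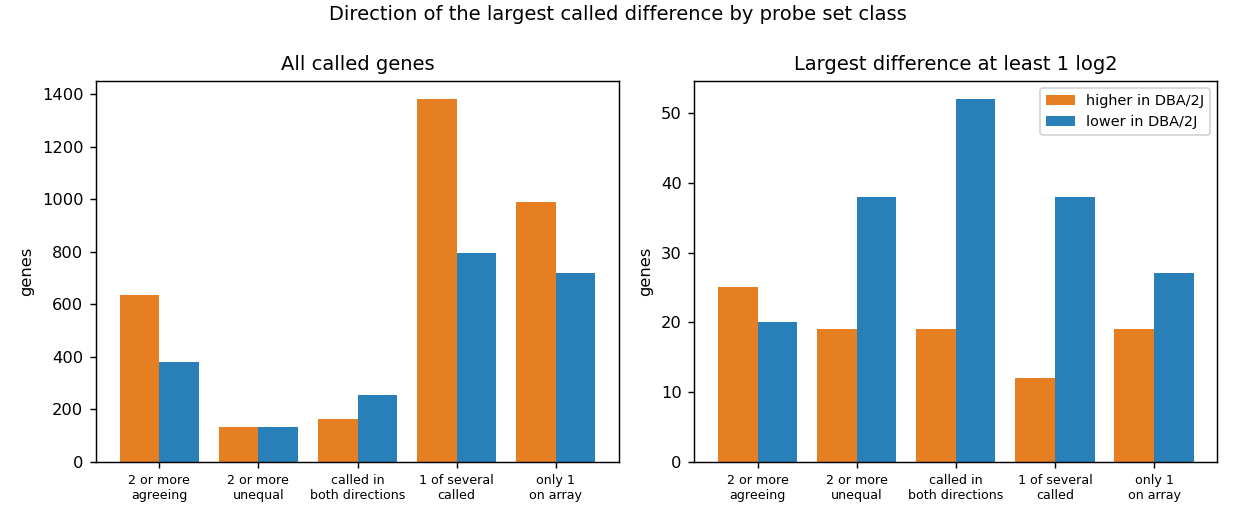
Number of genes (vertical axis) by probe set class (horizontal axis), with bars for genes whose largest called difference was higher or lower in DBA/2J than in C57BL/6J controls; the left panel holds all called genes and the right panel those with a largest difference of at least 1 log2. In the right panel agreeing genes number 25 higher and 20 lower, and single genes 12 higher and 38 lower.

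The number of probe sets of a gene moved with its class. Genes with 2 probe sets were agreeing in 7.82% and opposite in 1.85%, whereas those with 6 or more were agreeing in 24.7% and opposite in 13.7%. Both classes ask for at least 2 calls, which more probe sets make likelier, so a rise follows from the rule itself. The share of single genes was 23.7% with 2 probe sets and 22.6% with 6 or more. A direct test of each pair of probe sets, on the difference between their log2 values in the same array, found unequal strain differences in 5787 of 30372 pairs (19.1%). Of the 2178 single genes, 1115 (51.2%) had a called probe set that passed this test against at least 1 other of the gene. For the rest, the missing calls of the other probe sets were no measured difference from the called one. All 50 single genes with a difference of at least 1 passed, which a gap of that size beside uncalled probe sets makes nearly certain. The uncalled probe sets of single genes had the sign of the called one in 66.5% of 4003 cases and were dimmer than it in 62.0%. Among agreeing genes, 322 of 1862 called pairs (17.3%) were themselves unequal in size.

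Of the agreeing genes higher in DBA/2J, the 12 with the highest mean over their called probe sets are named. Cap1, which encodes an adenylyl cyclase-associated protein that regulates actin, led them. Its probe set 1417461_at ran from 10.30 through a median of 10.42 to 10.50 in DBA/2J arrays, and from 6.19 through 6.53 to 7.28 in C57BL/6J arrays. Probe set 1417462_at ran from 9.23 through 9.43 to 9.51 in DBA/2J arrays, and from 4.74 through 5.03 to 5.64 in C57BL/6J arrays. No DBA/2J array came near the highest C57BL/6J array. The differences were 3.82 ± 0.08 and 4.29 ± 0.08 log2 (SE), or 14.2-fold and 19.6-fold higher in DBA/2J (limma adjusted p = 1.98e-24 and 2.56e-25). The pair test separated these values by 0.47 ± 0.05 (adjusted p = 9.4e-09), so the sizes were close but not equal.

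Alad encodes aminolevulinate dehydratase, an early enzyme of haem synthesis, and DBA/2J is known to carry extra copies of the gene. Probe set 1424877_a_at ran from 9.01 through 9.30 to 9.62 in DBA/2J arrays, and from 7.60 through 7.89 to 7.99 in C57BL/6J arrays. Probe set 1457306_at ran from 6.85 through 7.20 to 7.57 in DBA/2J arrays, and from 5.75 through 6.02 to 6.35 in C57BL/6J arrays. The strains did not overlap on either. Alad was higher in DBA/2J by 1.46 ± 0.05 and 1.09 ± 0.06 log2, that is 2.76-fold and 2.13-fold (limma adjusted p = 2.41e-20 and 2.08e-15).

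Glo1, which encodes glyoxalase 1, a detoxifier of methylglyoxal, lies in a segment known to be duplicated in DBA/2J. All 4 of its probe sets were higher in DBA/2J, by 0.74 to 1.18 log2, or 1.67-fold to 2.27-fold. On the brightest, 1424109_a_at, DBA/2J arrays ran from 10.82 through 10.91 to 11.00 and C57BL/6J arrays from 9.72 through 9.92 to 10.03. The ranges were apart on every one of the 4. The difference on that probe set was 1.00 ± 0.04 (limma adjusted p = 7.74e-19). AKR/J controls sat at a median of 10.9 on it, within the DBA/2J range.

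Inpp4a, a phosphoinositide 4-phosphatase gene, had differences of similar size on its pair of probe sets. Probe sets 1421360_at and 1436616_at were higher in DBA/2J by 1.63 ± 0.05 and 1.44 ± 0.06 log2 (limma adjusted p = 6.00e-20 and 2.21e-17). On 1421360_at the DBA/2J arrays ran from 7.24 through 7.46 to 7.74 and the C57BL/6J arrays from 5.62 through 5.86 to 6.06. The pair test did not separate its probe sets, at 0.18 ± 0.09 (adjusted p = 0.19).

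Other high agreeing genes held weaker or uncalled probe sets beside the strong ones. For Paip1, whose product binds the poly(A)-binding protein, 1425521_at and 1441955_s_at were higher in DBA/2J by 3.13 and 2.15 log2, while 1451740_at was higher by 0.25 and 1456852_at was uncalled at 0.02. For H2-D1, a class I histocompatibility gene, 3 probe sets ending in _x_at were higher by 2.85 to 3.96 log2, whereas 4 more calls lay between 0.16 and 0.36 and 2 were uncalled. Of those small calls, 1425545_x_at and 1451784_x_at lost the call in a fit over all 71 arrays (adjusted p = 0.117 and 0.123). Serpina1b, of the alpha-1 antitrypsin family, was higher by 2.72 and 2.43 log2, both on probe sets ending in _x_at, which can match several genes of such a family. Wdfy1 had 4 calls higher by 0.40 to 2.02 log2 and an uncalled probe set at 0.10.

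The remaining high agreeing genes were higher by 0.99 to 1.73 log2 on called probe sets. Zfp729a, a zinc finger gene, had 3 of 3 probe sets called at 0.99, 1.61 and 1.73. Ppp1r16b, which encodes a regulatory subunit of protein phosphatase 1, had 1.66 on the bright 1455080_at and 1.16 on 1425414_at. Fam71e1 had 1.54 and 1.03. Rwdd3 had 1.47 and 1.08 with a dim probe set uncalled at -0.05, and Lsm12 had 1.29 and 1.14 with a dim one uncalled at 0.04.

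Among the low agreeing genes, Pttg1, which encodes securin, the inhibitor of sister chromatid separation, was lower in DBA/2J on every probe set. On 1438390_s_at the DBA/2J arrays ran from 8.11 through 8.22 to 8.48 and the C57BL/6J arrays from 11.60 through 11.71 to 11.79. The 2 ranges were far apart, and the level fell by 3.46 ± 0.04 on the log2 scale, 11.0-fold lower in DBA/2J (limma adjusted p = 7.10e-31). The log2 difference was -3.14 on 1424105_a_at and -0.70 on the dim 1419620_at.

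Krt12, a keratin known from the cornea, was lower in DBA/2J by nearly equal amounts on both of its probe sets, at -2.33 ± 0.06 and -2.32 ± 0.11 log2 (limma adjusted p = 1.57e-21 and 9.37e-16). On 1419230_at the DBA/2J arrays ran from 4.99 through 5.59 to 6.04 and the C57BL/6J arrays from 7.58 through 7.80 to 8.12. Sbsn, suprabasin, an epidermal gene, was lower, at -2.56 and -3.02 log2 on called probe sets, with 1459898_at uncalled at 0.00. Prpf19, a splicing factor gene, is agreeing through 1419839_x_at and 1449635_at, lower, at -1.52 and -1.26, while its brightest probe set 1456531_x_at was uncalled at 0.09 (adjusted p = 0.0521). That probe set passed as higher in the fit over 71 arrays (0.0264), which would make Prpf19 an opposite gene.

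Of the other low agreeing genes, Nudt19, which encodes a hydrolase of coenzyme A, had differences of -1.62 and -1.16, and Tcea1, the gene of the elongation factor TFIIS, -1.43 and -1.11. Tm9sf4 had -1.43 and -1.11, and Etnppl, an astrocytic phospho-lyase gene, -1.19 and -0.78. Nat8f4 had -1.90 and -1.64 with a smaller call of -0.43, and Zc2hc1a had -1.59 and -1.51 with -0.14 on 1428416_at. Every call of these 6 genes was lower in DBA/2J.

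Genes of the cerebellum stood among the low agreeing ones. Car8, a carbonic anhydrase-related gene of Purkinje cells, had all 3 probe sets lower in DBA/2J, at -0.80 ± 0.03, -1.73 ± 0.05 and -3.33 ± 0.07 log2. On 1457904_at the DBA/2J arrays ran from 4.67 through 4.95 to 5.33 and the C57BL/6J arrays from 8.13 through 8.29 to 8.61. Cbln3, a cerebellin gene of granule cells, was lower, at -1.08 ± 0.05 and -1.99 ± 0.10 log2. Of 8 measured cerebellar markers, 2 were called higher and 3 lower on their brightest probe set (62.5% called), with Gabra6 higher at 0.31 and Zic1 lower at -0.64. Over all genes, read the same way, 23.7% were called, 14.4% higher and 9.27% lower. The summed level of the cerebellar list ran from 13.4 to 13.6 in DBA/2J arrays and from 13.7 to 13.8 in C57BL/6J arrays. Cbln3 is itself a member of this list and its lowest one, at -1.08, so the count and the sum do not stand apart from it. The part of tissue composition in these genes was not tested. In pooled whole brain, fewer cells of a type and less RNA per cell cannot be told apart.

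**Figure D2:**
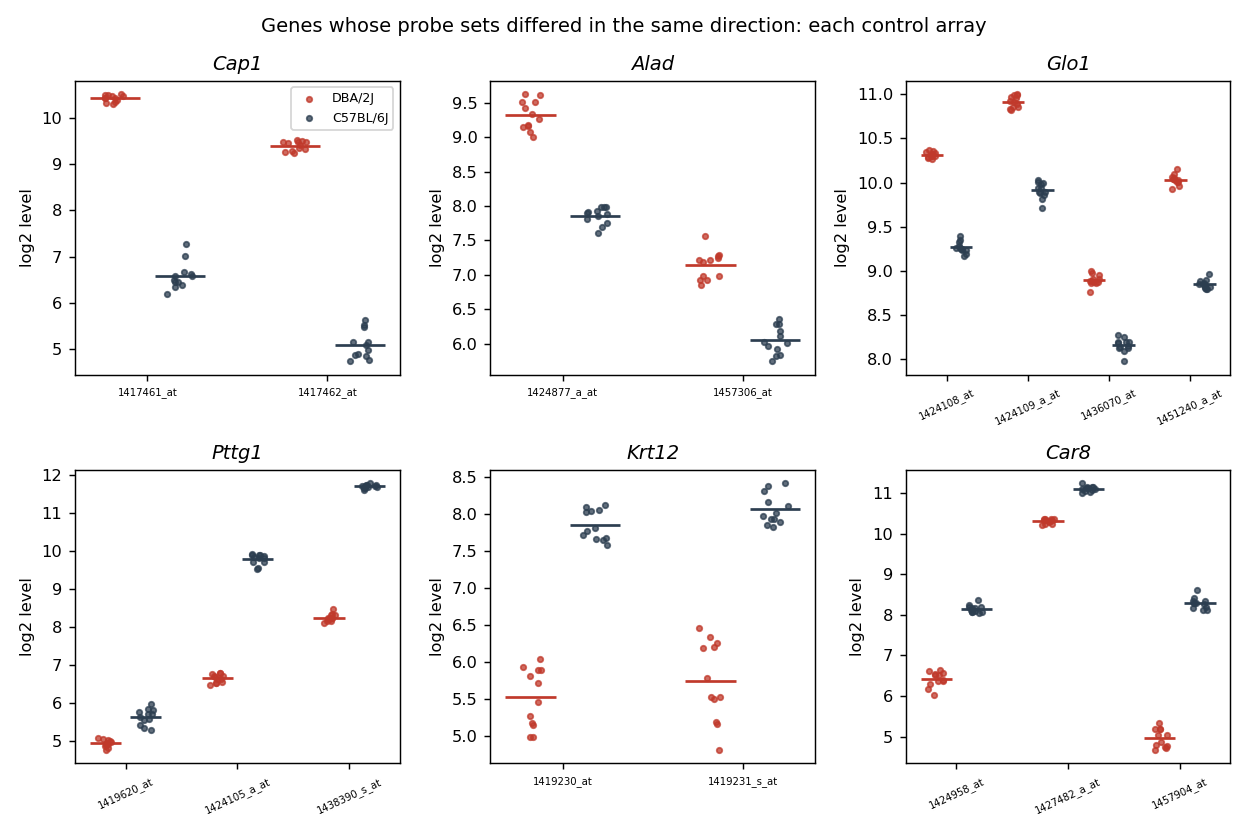
Log2 level (vertical axis) of each probe set (horizontal axis) of 6 agreeing genes in each control array, DBA/2J to the left of C57BL/6J, with a line at the mean of each strain. The points of the strains are separate for every probe set shown, and the gap varies between the probe sets of Car8 and Pttg1.

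Most single genes had a small difference, with a median size of 0.17 log2 on the called probe set, and the genes named here are those with the largest. Atxn1 encodes ataxin 1, the protein altered in a spinocerebellar ataxia. On 1438294_at the DBA/2J arrays ran from 5.16 through 5.66 to 5.85 and the C57BL/6J arrays from 8.78 through 8.96 to 9.15. The strains were apart by a log2 difference of -3.37 ± 0.06, 10.3-fold lower in DBA/2J (limma adjusted p = 6.44e-26). On its brightest probe set, 1434451_at, the DBA/2J median was 9.32 and the C57BL/6J median 9.37, and the ranges overlapped. That difference was 0.00 ± 0.04 (adjusted p = 0.962), and the pair test set the probe sets apart by 3.37 ± 0.07 (adjusted p = 7.4e-24).

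Scmh1, a Polycomb group gene, had the same form. On 1441573_at the DBA/2J arrays ran from 4.10 through 4.52 to 4.72 and the C57BL/6J arrays from 7.14 through 7.36 to 7.56. The difference was -2.92 ± 0.06 (limma adjusted p = 2.00e-24), against 0.00 and 0.04 on the other probe sets. Rpgrip1, a gene of the photoreceptor cilium, was lower on 1421144_at, at -3.50 ± 0.05, with its 3 other probe sets between 0.03 and 0.09 at levels near the bottom of the scale. Snhg14, a long non-coding host of small nucleolar RNAs in an imprinted region, was lower on 1436964_at, at -3.25 ± 0.05. Neat1, the non-coding RNA of nuclear paraspeckles, was lower on 1428083_at, at -2.49 ± 0.04, with 1442881_at at 0.04. Ndel1, a regulator of the motor protein dynein, was lower on 1424893_at, at -2.46 ± 0.07, with the bright 1422568_at at 0.02.

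Single genes higher in DBA/2J included Gprc5b, an orphan receptor gene. On 1451411_at the DBA/2J arrays ran from 9.92 through 10.08 to 10.14 and the C57BL/6J arrays from 7.04 through 7.99 to 8.12. The difference was 2.15 ± 0.08 (limma adjusted p = 1.53e-18), and 1424613_at, of similar brightness, gave -0.04 ± 0.04 (adjusted p = 0.629). Zfp704, a zinc finger gene, was higher by 2.45 ± 0.06 on 1417849_at, against 0.11 on 1417848_at. The difference on 1417848_at missed the threshold at an adjusted p of 0.0681 and passed it in the fit over 71 arrays (0.0243), and the pair test set the probe sets apart (adjusted p = 6.4e-20). Kbtbd11 was higher on 1430073_at by 2.00 ± 0.05, with its 3 other probe sets between -0.07 and 0.07. Hddc3 on 1428692_at, Sfi1 on 1428778_at and Bloc1s6, a gene of lysosome-related organelles, on 1457088_at were higher by 1.74, 1.71 and 1.38. Bloc1s6 1417349_at, uncalled at -0.07, passed as lower in the fit over 71 arrays (adjusted p = 0.0447) and with each array centred on its median (0.0478). Either would make Bloc1s6 an opposite gene.

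Opposite genes gave a direction that depended on the probe set. Prune2 had the widest gap between called probe sets. On 1432198_at the DBA/2J arrays ran from 4.45 through 4.61 to 4.87 and the C57BL/6J arrays from 10.81 through 10.90 to 11.38. On 1455342_at the DBA/2J arrays ran from 9.35 through 9.48 to 9.65 and the C57BL/6J arrays from 7.42 through 7.84 to 7.96. Both pairs of ranges were apart, in opposite directions. The differences were -6.28 ± 0.06 and 1.72 ± 0.06, with limma adjusted p = 2.39e-32 and 6.00e-20. Probe set 1439274_at was higher by 0.50, and 1430757_at was uncalled at -0.08.

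Pdxdc1, a gene with a pyridoxal-dependent decarboxylase domain, was higher in DBA/2J on 1419327_at by 3.90 ± 0.05 and lower on 1452705_at, at -3.11 ± 0.06. On 1419327_at the DBA/2J arrays ran from 7.96 through 8.18 to 8.32 and the C57BL/6J arrays from 4.05 through 4.27 to 4.50. On 1452705_at they ran from 5.19 through 5.61 to 5.93 in DBA/2J and from 8.60 through 8.70 to 8.86 in C57BL/6J. Its 2 other probe sets were also called lower. Sox11, a transcription factor gene of neuronal development, spanned -3.92 to 1.70 over 5 calls, and Tia1, an RNA-binding protein of stress granules, was lower, at -4.00 on 1431708_a_at with 5 calls higher by 0.15 to 0.55. Ssbp2 was lower, at -4.13 on 1429951_at and higher by 0.58 on 1451542_at, with 2 probe sets uncalled. Trpm3, a cation channel gene, had 3 calls lower and 2 higher.

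Kcnj9 encodes GIRK3, a G protein-gated potassium channel subunit of a region mapped for barbiturate and alcohol withdrawal. On its brightest probe set 1450712_at the DBA/2J arrays ran from 9.73 through 9.88 to 10.01 and the C57BL/6J arrays from 7.38 through 7.87 to 8.01, a difference of 2.07 ± 0.05. Probe set 1426115_a_at was higher by 1.14 ± 0.07, but 1428602_at was lower, at -0.71 ± 0.04, and 1433029_at was uncalled at 0.05. The ranges of the strains were apart on all 3 called ones. Its neighbour in the gene order, Kcnj10, an astrocytic potassium channel gene with 1 probe set, was higher by 0.62 ± 0.05.

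**Figure D3:**
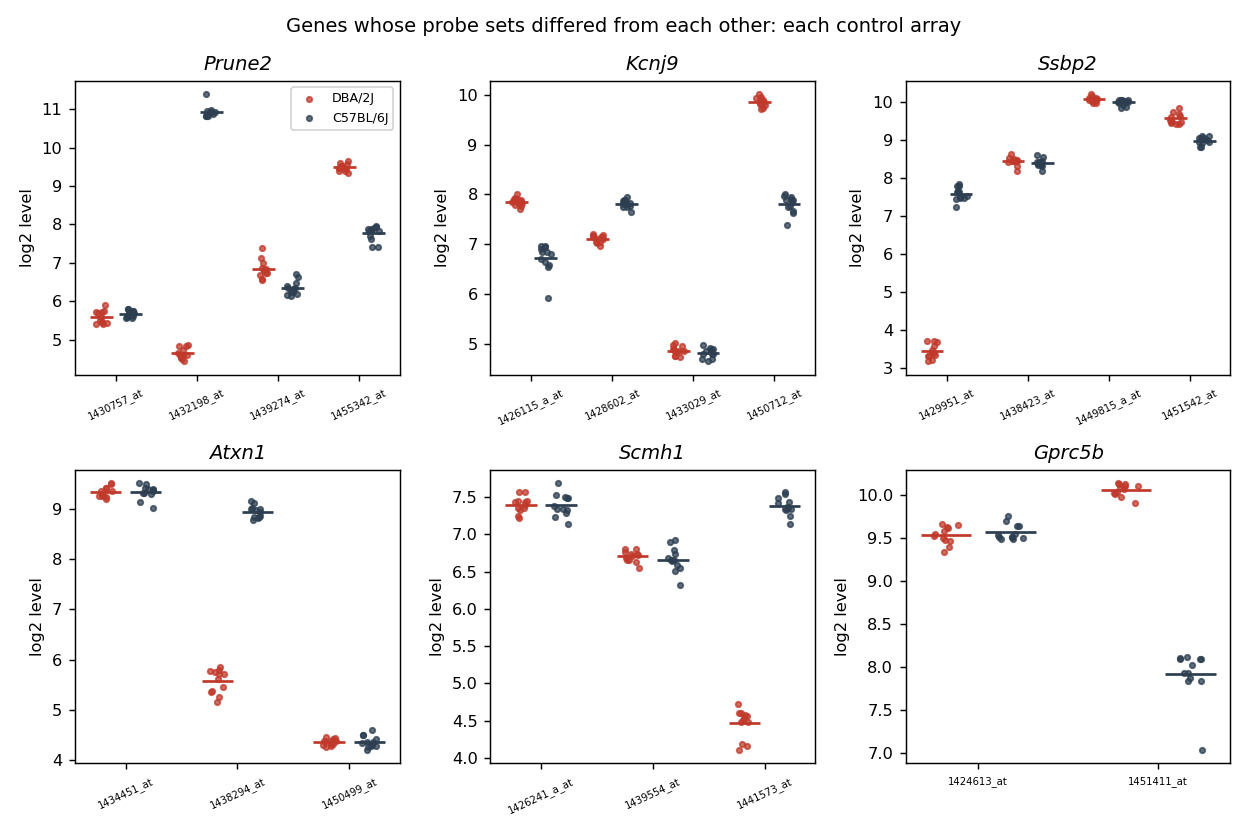
Log2 level (vertical axis) of each probe set (horizontal axis) of 3 opposite genes (upper row) and 3 single genes (lower row) in each control array, DBA/2J to the left of C57BL/6J, with a line at the mean of each strain. Within a gene, probe sets with separate strains stand beside probe sets whose strains overlap, and in the upper row the order of the strains turns round.

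For genes with a lone probe set no such check was possible. Stab2, a scavenger receptor gene of sinusoidal endothelium, was higher in DBA/2J by 3.75 ± 0.10 log2 (limma adjusted p = 1.94e-22), with DBA/2J arrays from 7.92 through 8.26 to 9.20 and C57BL/6J arrays from 4.35 through 4.61 to 4.73. Rbm45, an RNA-binding protein gene, was higher by 3.02 ± 0.07, and Pfn1, which encodes the actin-binding protein profilin, by 1.75 ± 0.06. Tmem87a was higher by 2.69, AI506816 by 1.91 and Rpl14, a ribosomal protein gene, by 1.71. The lowest were Tmem267 at -4.22 ± 0.11, the probe set assigned to Mir1931 at -4.20 ± 0.08 and Gm13306 at -4.13 ± 0.07, followed by 2010315B03Rik, Zfp874a and Gm26782 between -2.16 and -2.64. For Tmem267 the DBA/2J arrays ran from 3.51 through 3.83 to 4.56 and the C57BL/6J arrays from 7.86 through 8.13 to 8.80.

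The strain differences recurred in the sleep-deprived arrays. Over all probe sets the strain difference in controls and in sleep-deprived arrays correlated at 0.960, across probe sets that are not independent and that share their probes. Of 9958 calls in controls, 7335 (73.7%) were called with the same sign in sleep-deprived arrays, where 10232 probe sets (22.7%) were called in all, and 2 were called with the opposite sign. Calls of single genes recurred in 63.7%, of lone-probe-set genes in 74.5%, of agreeing genes in 76.7%, of opposite genes in 82.5% and of unequal genes in 83.7%. The median size of the calls had the same order, at 0.17, 0.19, 0.21, 0.26 and 0.31 log2. Class and size were not told apart, so these shares do not rank the classes. Every call of at least 1 log2 recurred in each class. Prune2 1432198_at gave -6.32 in sleep-deprived arrays, Atxn1 1438294_at -3.40 and Cap1 1417461_at 3.79. The sleep-deprived arrays hold other pools of mice but the same probes. Of the 24, 3 were low on the spike-in signal, all C57BL/6J (ZT0 replicate 3 and ZT6 replicates 1 and 3), and without them 9289 probe sets were called.

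**Figure D4:**
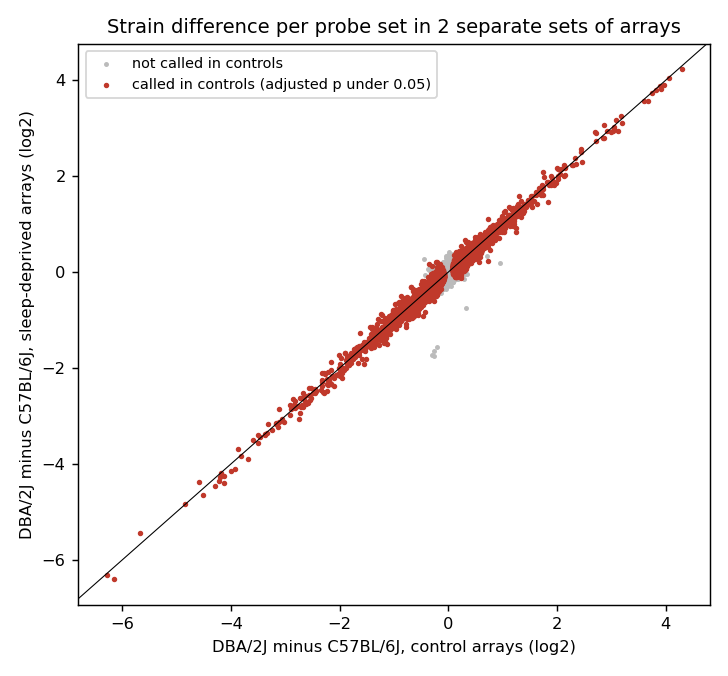
Strain difference, DBA/2J minus C57BL/6J in log2, of each probe set in control arrays (horizontal axis) and in sleep-deprived arrays (vertical axis), with probe sets called in controls in red and a line of equality. The points follow the line, with a correlation of 0.960 over 45037 probe sets.

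The strain difference was also fitted at each time of sacrifice. It was called in 4104 probe sets at ZT0, 4414 at ZT6, 3899 at ZT12 and 4145 at ZT18, and 1941 were called with the same sign at all 4 times. A change of the strain difference with time passed the test in 2 probe sets (0.00444%). At an unadjusted p under 0.05 there were 4228 (9.39%), beside the 5% that such a threshold passes where nothing changes.

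One of these was Homer1, a postsynaptic scaffold gene known as a marker of sleep need, on the probe set 1436387_at. Averaged over times, none of the 6 Homer1 probe sets was called, with differences from -0.07 to 0.01. By time, 1436387_at averaged 9.26 ± 0.19 in DBA/2J and 8.77 ± 0.11 in C57BL/6J at ZT0, and 7.63 ± 0.10 in DBA/2J and 8.32 ± 0.02 in C57BL/6J at ZT6 (SD, 3 arrays each). At ZT12 it averaged 7.07 ± 0.17 in DBA/2J and 7.42 ± 0.18 in C57BL/6J, and at ZT18 9.69 ± 0.12 in DBA/2J and 9.42 ± 0.15 in C57BL/6J. DBA/2J was thus higher at ZT0 and ZT18 and lower at ZT6 and ZT12 (limma adjusted p = 0.00631 for any change of the strain difference with time). The means spanned 7.07 to 9.69 in DBA/2J and 7.42 to 9.42 in C57BL/6J, but the size of the swing was not tested. In sleep-deprived arrays the strain difference of this probe set was 0.17. The other was Ogt 1436780_at, the O-GlcNAc transferase gene, at an adjusted p of 0.0333, which lost the call in the fit over 71 arrays (0.131) and without any 1 of 14 of the 24 arrays.

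Between conditions, 3 probe sets had a strain difference that changed with sleep deprivation (0.00666%), with 2154 at an unadjusted p under 0.05 (4.78%). Gabra2, which encodes the alpha-2 subunit of the GABA-A receptor, is known to carry an intronic deletion in C57BL/6J that lowers its expression. Probe set 1455444_at ran from 8.52 through 8.70 to 8.87 in DBA/2J controls and from 7.22 through 7.38 to 7.65 in C57BL/6J controls, a difference of 1.25 ± 0.04. Its other bright probe sets gave 1.14 and 1.20, and 2 dim ones 0.13 and 0.24. In sleep-deprived arrays the difference of 1455444_at was 0.92, smaller by 0.33 (limma adjusted p = 0.00934 for the change). Without the 4 arrays low on the spike-in signal the change was -0.35 (adjusted p = 0.00454). The DBA/2J means lay between 8.62 and 8.72 with sleep deprivation and between 8.62 and 8.78 without. The C57BL/6J mean at ZT0 was 7.78 ± 0.11 with sleep deprivation and 7.50 ± 0.13 without, and at ZT6 7.82 ± 0.09 with it and 7.34 ± 0.07 without (SD, 3 arrays each). At ZT12 it was 7.70 ± 0.07 with sleep deprivation and 7.27 ± 0.07 without, and at ZT18 7.69 ± 0.16 with it and 7.63 ± 0.02 without, so the C57BL/6J means were closest at ZT18. The other probe sets of Gabra2 did not pass this test.

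**Figure D5:**
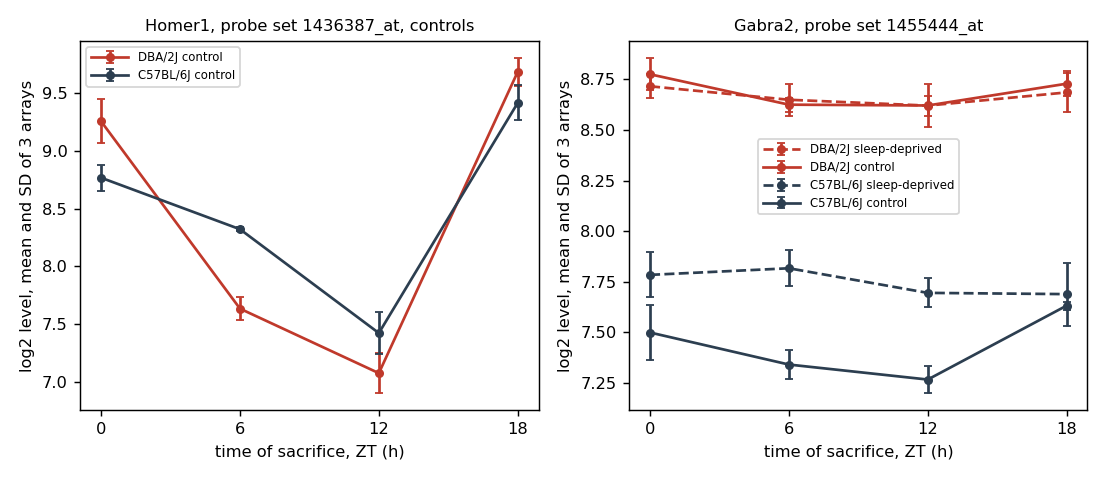
Log2 level, mean and SD of 3 arrays (vertical axis), by time of sacrifice in hours of ZT (horizontal axis), for Homer1 1436387_at in controls (left) and Gabra2 1455444_at in sleep-deprived (dashed) and control (solid) arrays (right), DBA/2J in red and C57BL/6J in dark blue. The DBA/2J line of Homer1 lies above the C57BL/6J line at ZT0 and ZT18 and below it at ZT6 and ZT12, and the sleep-deprived C57BL/6J line of Gabra2 lies above its control line, least so at ZT18.

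Of 16 measured genes with known alleles of either strain, 7 were called higher in DBA/2J and 3 lower on their brightest probe set (62.5%). Over all genes, read the same way, 23.7% were called, 14.4% higher and 9.27% lower. These genes were listed because the strains are known to differ there, so their count is a description. Nnt, the mitochondrial transhydrogenase gene deleted in part in C57BL/6J, was higher in DBA/2J by 0.66 ± 0.05 and 0.54 ± 0.04 log2 on its bright probe sets. Its neighbour in the gene order is Paip1. Myo5a, the myosin of the dilute coat colour mutation of DBA/2J, was lower on all 3 probe sets, at -0.35 to -0.46. H2-Ea, whose product C57BL/6J lacks, was higher by 0.70 ± 0.06 on 1422892_s_at and uncalled on the other 2, including the brightest. Its dim 1426202_at, at -0.10, passed as lower in the fit over 71 arrays (adjusted p = 0.0462) and with each array centred on its median (0.0379), which would make it an opposite gene. Gpnmb, with a stop mutation in DBA/2J, was lower, at -0.34 ± 0.05 on 1448303_at, and Mpdz, a candidate for alcohol withdrawal, at -0.37 ± 0.05 on 1418664_at. Both are single genes, with 1 of 2 probe sets called in Gpnmb and 1 of 4 in Mpdz. Mpdz 1418663_at, uncalled at -0.19, passed as lower in the fit over 71 arrays (adjusted p = 0.00921). Tyrp1, the gene of the brown coat mutation of DBA/2J, was called higher by 0.20 on 1415862_at and 0.16 on 1439409_x_at at levels near 4, and the call on 1439409_x_at was lost in the fit over 71 arrays (adjusted p = 0.0532). Hc, Klrd1, Fscn2, Cdh23 and Tas1r3 had no call, with log2 differences between -0.08 and 0.10, and Klrd1 passed at -0.09 when arrays were quantile normalized again (adjusted p = 0.0476). Ahr, a single gene at 0.13, lost its call under that scaling (adjusted p = 0.0754).

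Of 13 measured genes of sleep traits, 1 was called higher and 3 lower (30.8%), near the 23.7% called over all genes (14.4% higher, 9.27% lower). Their median difference was 0.02, beside 0.02 over all genes. Ptgds, the synthase of the sleep-promoting prostaglandin D2, was lower in DBA/2J on both probe sets. On 1423860_at the DBA/2J arrays ran from 12.09 through 12.33 to 12.45 and the C57BL/6J arrays from 12.58 through 12.72 to 12.84. The differences were -0.41 ± 0.04 and -0.28 ± 0.03, with ranges apart on each (limma adjusted p = 1.96e-09 and 5.49e-08). Hcrt, the gene of the wake-promoting hypocretins, was lower, at -0.23 ± 0.05, Acot11, a thioesterase gene, at -0.20 ± 0.03 on 1429267_at, and Rarb, a retinoic acid receptor gene, was higher by 0.22 ± 0.04. Acot11 is a single gene, uncalled at -0.05 on 1425667_at. Sik3, a kinase gene of sleep need, was higher on 1441947_x_at by 0.36 ± 0.07 and on 1460439_at by 0.25 ± 0.04, with its brightest probe set 1455437_at uncalled at 0.00. Kcna2, Nalcn, Npas2, Hcrtr2, Ada and Acads had no call, nor had Per2, whose 1417603_at lay at 0.16 (adjusted p = 0.0552) and passed in the fit over 71 arrays (0.0235).

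The neurotransmitter lists were read on the brightest probe set too, beside 14.4% higher and 9.27% lower over all genes. GABA-A receptor subunits had 4 of 12 genes higher and 1 lower (41.7% called), with Gabra6 at 0.31 and Gabrb1 at 0.26 next after Gabra2, and Gabra5 lower at -0.20. Gabrb1 is an opposite gene, lower at -0.67 on 1443205_at. Glutamate receptor subunits had 3 of 21 higher and 3 lower, none by more than 0.27 on the brightest probe set. Dimmer probe sets differed by more in Gria1, an opposite gene with 0.89 on 1448972_at and -0.12 on 1435239_at, and in Grm7, an unequal gene with 0.76 on 1459532_at. Potassium channel genes had 7 of 28 higher and 4 lower, with Kcnj3, which encodes another GIRK subunit, lower at -0.40 on 1455374_at but higher by 0.27 on the dim 1444336_at, which makes it an opposite gene. Neuropeptide, opioid and cannabinoid genes had 7 of 20 higher and 3 lower, with Pmch, the gene of melanin-concentrating hormone, higher by 0.41 ± 0.04 and Cartpt lower, at -0.27 ± 0.04. Monoamine and acetylcholine genes had 5 of 26 higher and 2 lower (26.9% called), and glutamate receptors 28.6% called, both near the 23.7% over all genes.

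Core clock genes had 6 of 22 called higher and 0 lower on the brightest probe set (27.3% called). Over all genes 23.7% were called, 14.4% higher and 9.27% lower. Of the 14 clock genes with 2 or more probe sets, 6 were opposite genes, beside 4.64% of all such genes. Per3, a period gene, was higher in DBA/2J by 0.87 ± 0.05 on 1421087_at and Csnk1e, a kinase of period proteins, by 0.59 ± 0.04. All 4 of the leading clock genes, Per3, Csnk1e, Bhlhe41 and Rorb, were opposite genes, so other probe sets of theirs were called lower. The largest difference of Bhlhe41 was a lower one, at -0.67. Immediate early genes, which respond to neuronal activity, had 4 of 25 higher and 3 lower (28% called), with Ptgs2 lower at -0.47 ± 0.08.

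The metabolic and immune lists were read beside the same 23.7% called over all genes. Among them, glutathione and glyoxalase enzymes had 7 of 23 higher and 6 lower (56.5% called), with Mgst3 at 0.73 ± 0.05 and Gsto1 at -0.37 ± 0.04. Mgst3 is an unequal gene, with 0.17 on 1450563_at. Haem synthesis had 3 of 8 higher and 2 lower, with Ppox at -0.42 ± 0.05 on 1416618_at and Cpox at -0.39 ± 0.06 on 1422493_at. Both are single genes, the other probe sets lying at -0.02 and 0.10 in Ppox and at -0.09 and 0.00 in Cpox. Alcohol and aldehyde enzymes had 1 of 14 higher and 4 lower, Aldh7a1 at -0.82 ± 0.03 on 1460167_at and Aldh9a1 at -0.64 ± 0.04 among them. Aldh7a1 is a single gene, with its 2 dim probe sets uncalled at 0.12 and 0.14, and Aldh9a1 an unequal one. Respiratory chain genes had 5 of 27 higher and 1 lower (22.2% called), with Nnt leading. Ribosomal protein genes had 4 of 20 higher and 3 lower, with Rps6, an unequal gene, lower at -1.16 ± 0.05. Histocompatibility genes had 4 of 14 higher and 3 lower, with B2m, the light chain of class I molecules, lower at -0.33 ± 0.04, and interferon-induced genes 1 of 16 higher and 1 lower (12.5% called), the low one being Trim30a, a single gene, at -0.74 ± 0.06 on 1417961_a_at.

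Markers of glial cells were also counted, beside 14.4% of all genes called higher and 9.27% lower. Of 8 oligodendrocyte markers 0 were called higher and 6 lower, with a median of -0.18 log2 beside 0.02 over all genes, Mog at -0.35 ± 0.05 and Cnp at -0.22 ± 0.04 among them. Their summed level ran from 14.6 to 14.8 in DBA/2J arrays and from 14.8 to 15.0 in C57BL/6J arrays. Of 10 microglial markers 0 were higher and 4 lower, led by the complement genes C1qc at -0.96 ± 0.06 and C1qb at -0.92 ± 0.07. Of 10 astrocyte markers 1 was higher and 1 lower. Of 6 hypothalamic markers 3 were higher, with Avp, the vasopressin gene, at 0.65 ± 0.05, and 1 was lower.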

How the data were processed

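Whole-brain RNA was measured on one-colour Affymetrix arrays. The deposited values are log2 signals per probe set, computed by RMA according to the submitters' processing notes. Neither its version and settings nor detection calls are stated there, so precision rests on the number of arrays. Control probe sets (64) were left out. Symbols are those of the platform's annotation (34945 probe sets with 1 symbol, 932 with several, 9160 with none), updated through RefSeq (GRCm38.p6), which also gave the order of genes.

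Strain plus time of sacrifice was fitted with limma 3.58.1 in R 4.3.3 to the 24 control arrays. The same fit served the sleep-deprived arrays and the within-array differences of probe set pairs; interactions with time and with sleep deprivation used cell means. The pipeline was tested on simulated data with 45037 probe sets. There 4% of 50 changes of 0.1 log2, 80% of 50 changes of 0.25 and 100% of those of 1 were recovered. The simulation gave 149 calls, 7 of them false, against 9958 calls in the data, so its recovery of small changes need not hold for the data. Of 12 same-numbered pairs of control arrays, 1 had deviations correlated over 0.1. The arrays of the series low on the spike-in signal were mostly those numbered replicate 3. Whether same-numbered arrays were processed together was not tested. The labels give 3 arrays and 9 mice a group, hence separate pools, and p-values reflect the variation among them.

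Named genes were the 12 highest and 12 lowest agreeing genes, 6 and 6 single and 6 and 6 lone-probe-set genes, the 6 widest opposite genes, all known-allele and sleep trait genes, up to 4 called members of each other list by p, and the leading interactions; those described were picked among them for the text, and marker genes are given beside results. The named single genes were taken among those that passed the pair test, so their pair tests are a description. Members and lists were chosen with earlier results of these data known.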

Additional observations from a re-analysis of the deposited data

Results flagged for a closer look

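The strain difference changed with the time of sacrifice, by limma's interaction test, for Homer1 1436387_at (adjusted p = 0.00631) and Ogt 1436780_at (adjusted p = 0.0333). For Ogt the mean was 6.68 ± 0.33 in DBA/2J and 5.93 ± 0.11 in C57BL/6J at ZT6, and 6.02 ± 0.07 in DBA/2J and 6.51 ± 0.16 in C57BL/6J at ZT18 (SD, 3 arrays each). The 4 other Ogt probe sets were uncalled for the strain. The strain difference changed with sleep deprivation for Gabra2 1455444_at, by -0.33 log2 (adjusted p = 0.00934), for 4930570G19Rik 1439684_at, by -0.51 (adjusted p = 0.0193), and for Gkn3 1429286_at, by 0.44 (adjusted p = 0.0333). The difference of 4930570G19Rik was 0.23 in sleep-deprived arrays and 0.74 in controls, and that of Gkn3 was 0.22 in sleep-deprived arrays and -0.22 in controls. Gkn3 lost this call without any 1 of 28 of the 48 arrays, whereas Gabra2 and 4930570G19Rik kept theirs.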

How the results depend on the processing

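No named probe set called in the main fit changed sign under any alternative run. Most runs could not change a sign, since they left the difference itself as it was. These were the 71-array fit, the replicate block, dropping the time term, trend and robust eBayes, the thresholds and the subsets of probe sets. Quantile normalizing again, centring, array weights and leaving out an array could change it. Quantile normalizing again, centring, array weights, trend and robust eBayes, all 71 arrays and dropping the time term kept the counts of calls and classes within 1.5 times. With an adjusted p under 0.01, calls higher in DBA/2J numbered 3811 and agreeing genes 672. With a difference of at least 0.25 asked as well, 3790 probe sets were called, 1812 higher and 1978 lower, with 333 agreeing, 1011 single, 85 unequal and 136 opposite genes, so the balance of directions turned with that threshold. Above the median level, single genes numbered 1408 and unequal pairs 2926. Unequal genes numbered 483 with a stricter size condition and 0 with none, by construction. With agreement asked of all probe sets (added after seeing the data) 451 genes were agreeing. The change of the strain difference with time was called in 6 probe sets with all 71 arrays and in 1 with the replicate block, where Ogt lost its call (0.0973).

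Leaving out each array in turn gave 9406 to 10156 calls, 5458 to 6026 higher and 3946 to 4206 lower, 932 to 1033 agreeing, 2097 to 2170 single, 241 to 277 unequal and 389 to 437 opposite genes, and 5464 to 5844 unequal pairs. It gave 9548 to 10412 calls in sleep-deprived arrays, 1 to 4 changes with time and 2 to 4 with sleep deprivation. Homer1 and Gabra2 kept their calls throughout, with adjusted p up to 0.0349 and 0.0247, and 4930570G19Rik up to 0.0486. Gkn3 reached 0.0823 and Ogt 0.228 without single arrays, and Gkn3 0.0549 with all 71 arrays. With the replicate number as a block, 9284 probe sets were called. Signals near the bottom of the scale limit what a dim probe set can show.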

Other observations

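AKR/J controls were set beside the large differences. Of 487 probe sets called at 1 log2 or more, AKR/J lay nearer to DBA/2J in 245 and nearer to C57BL/6J in 242. With a tolerance of 0.25 of the strain gap, 218 probe sets matched DBA/2J, 201 matched C57BL/6J and 68 matched neither. For Cap1 1417461_at the AKR/J median was 6.82, near the C57BL/6J level, and for Pttg1 1438390_s_at it was 7.89, near the DBA/2J level. For Alad 1424877_a_at it was 9.33, near DBA/2J, and for Prune2 1432198_at it was 4.38, again near DBA/2J.

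In the gene order, 146 of 1013 agreeing genes (14.4%) had an agreeing gene next to them, beside 10.6% of genes that were not agreeing. Of the 146, 91 had a neighbour of the same direction and 55 only one of the opposite direction. Of all agreeing genes 635 were higher in DBA/2J and 379 lower, so a shared direction is common among them in any order. The split was not tested.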
